A study of Rattus norvegicus with 16 samples.

Results

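The Zfp genes are the rat zinc finger protein genes whose symbol is Zfp followed by a number. Every protein-coding gene of the count table with such a symbol was taken as a member, which gave 233 of 32623 genes, 22050 of them protein-coding. Most of these genes encode proteins with a row of zinc fingers, small folds held together by a zinc ion that each contact a few bases of DNA. Many also carry a KRAB domain, which binds the corepressor Trim28 and through it the histone methyltransferase Setdb1 and heterochromatin proteins, and such proteins are known above all for silencing transposable elements. The same symbol is carried by proteins of other kinds, among them the RNA-binding protein Zfp36 (tristetraprolin) and the ubiquitin ligase Zfp598, so the members share a symbol and not a single function.

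The study asked how acidosis changes gene expression in kidney cells that share their medium. NRK-52E cells, a rat epithelial line derived from the proximal tubule, were grown on permeable filter inserts above NRK-49F cells, a rat kidney fibroblast line. After 24 h without serum, the indirect co-culture was kept in medium of pH 7.4 or pH 6.0 for 48 h, and poly(A) RNA of each cell line was then sequenced separately. The 16 libraries fall into 4 groups of 4, namely NRK-52E at pH 7.4 (N1, N2, N5, N6), NRK-52E at pH 6.0 (N3, N4, N7, N8), NRK-49F at pH 7.4 (N9, N10, N13, N14) and NRK-49F at pH 6.0 (N11, N12, N15, N16). The sample titles write the pH values as 7 and 6, and the treatment protocol gives 7.4 and 6.0. The labels do not say that the 4 libraries of a group came from separate cultures, so the p-values measure the spread between these samples, which may be technical. The depth was between 16201084 counted fragments (N12) and 34784862 (N16) per library. Within a group no pair of libraries matched within sampling noise, the closest pair being N2 and N6 with a chi-square of 6.12 per degree of freedom.

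Levels are given in FPM, counted fragments scaled to library size (counts per 1e6) after TMM scaling over the 16 libraries. They are not divided by gene length, so levels of different genes are not compared with each other. Differentially expressed genes (DEGs) between pH 6.0 and pH 7.4 were those with an FDR (false discovery rate) under 0.01 in both edgeR and DESeq2, and a log2 fold change is positive where expression was higher at pH 6.0. RNA from bulk cultures was measured, so fewer cells that express a gene and less RNA of it per cell cannot be told apart.

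The labelled cell types were compared with marker genes. In NRK-52E at pH 7.4, 6 of 10 epithelial markers were above 1 FPM, led by Krt8 with 430 ± 32.0 FPM and Tjp1 with 371 ± 29.7 FPM (mean ± SD, n = 4), and Ocln was 41.2 ± 2.04 FPM. Cdh1, the gene of E-cadherin, was only 1.62 ± 0.221 FPM there, and Epcam, Krt18, Cldn1 and Cldn4 were below 1 FPM. In NRK-49F at pH 7.4, Ocln and Cdh1 had no counts, while Krt8 was 848 ± 70.4 FPM. Of 9 fibroblast markers in the table, Pdgfra (392 ± 54.7 FPM against 0.286 ± 0.110 FPM), Col1a1 (6205 ± 410 FPM against 23.6 ± 3.84 FPM) and Vim (7108 ± 715 FPM against 684 ± 102 FPM) were higher in NRK-49F than in NRK-52E at pH 7.4. Col3a1 ran the other way, with 458 ± 103 FPM in NRK-49F and 6221 ± 95.0 FPM in NRK-52E, and Dcn and Fap were below 1 FPM in both lines.

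These marker lists also moved with pH. The summed level of the epithelial markers was 865 to 901 FPM at pH 7.4 and 797 to 996 FPM at pH 6.0 among NRK-52E libraries, with Krt8 or Tjp1 as the most abundant gene. That sum holds a rise of Tjp1 from 371 to 579 FPM, while the 5 other epithelial markers tested in this line were lower at pH 6.0, with a median over all 6 of -1.44. Among them Krt8 went from 430 to 316 FPM, Ocln from 41.2 to 9.67 FPM, Krt7 from 36.7 to 15.51 FPM, Krt19 from 2.49 to 0.825 FPM and Cdh1 from 1.62 to 0.315 FPM. The epithelial sum in NRK-49F was 927 to 1061 FPM at pH 7.4 and 316 to 353 FPM at pH 6.0, with Krt8 as the most abundant gene in every library. The summed level of the fibroblast markers was 6822 to 7252 FPM at pH 7.4 and 2238 to 3563 FPM at pH 6.0 among NRK-52E libraries, where Col3a1 led. In NRK-49F it was 13695 to 15014 FPM at pH 7.4, led by Vim, and 10197 to 11992 FPM at pH 6.0, led by Col1a1. The part of these changes in the results on Zfp genes was not tested.

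Of the 233 Zfp genes, 226 were counted at least once and 7 never. The filter on low counts of edgeR passed 197 of them in both cell lines, 5 in NRK-52E alone, 10 in NRK-49F alone and 21 in neither line. A gene expressed in a single condition can pass this filter through that condition, so the shares and medians below describe the genes tested and are not a test of the family. The mean over the 16 libraries was 5 FPM or more for 163 members and 100 FPM or more for 5, and 19 members stayed below 1 FPM in every library.

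In NRK-52E cells more Zfp genes were lower than higher at pH 6.0. Of 202 members tested, 91 were DEGs with lower expression (45.0%) and 31 DEGs with higher expression (15.3%), while among all 13735 genes tested 28.5% were lower and 28.2% higher. The median log2 fold change of the members was -0.48, against 0.00 for all genes tested, and 73.3% of the members had a negative value. The lower DEGs had a median log2 fold change of -1.23 and the higher ones of 0.98. A log2 fold change of 1 or more in size was found for 62 of the lower and 15 of the higher DEGs, which are 30.7% and 7.43% of the members tested, beside 18.7% and 13.6% of all genes. Of the 31 members that edgeR did not test, DESeq2 alone called 4.

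In NRK-49F cells the shift was smaller. Of 207 members tested, 52 were DEGs with lower expression (25.1%) and 18 DEGs with higher expression (8.70%), beside 19.4% lower and 18.4% higher among all 13339 genes tested. The median was -0.12 for the members and -0.00 for all genes, and 59.4% of the members had a negative value. In this line 19 lower and 4 higher DEGs had a log2 fold change of 1 or more in size, 9.18% and 1.93% of the members tested, beside 8.46% and 6.58% of all genes.

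**Figure D1:**
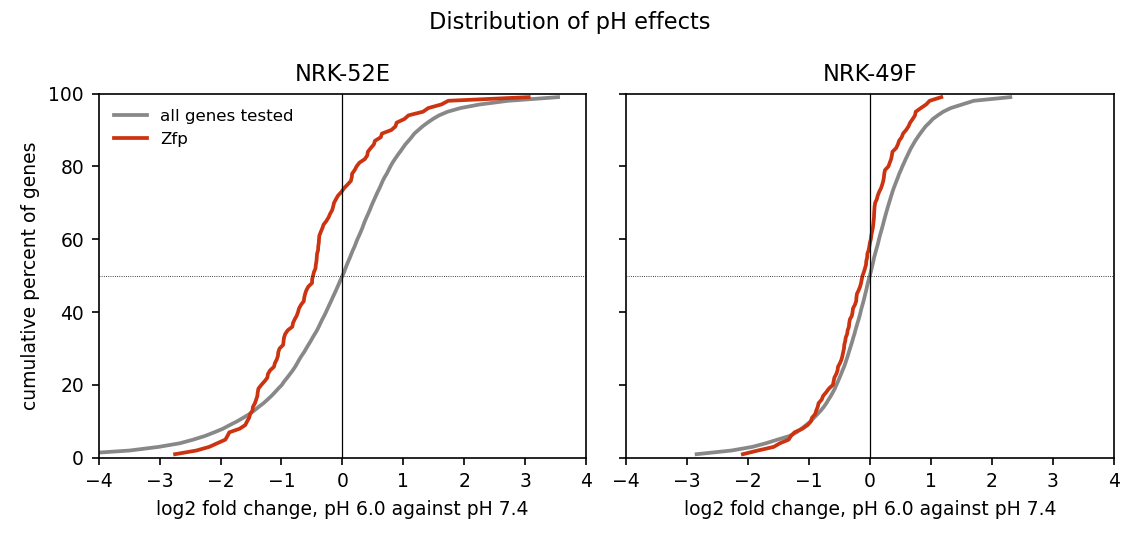
Cumulative percent of genes (vertical axis) against the log2 fold change at pH 6.0 relative to pH 7.4 (horizontal axis), in NRK-52E on the left and NRK-49F on the right, for the Zfp genes tested (red) and all genes tested (grey). The red curve crosses 50% at -0.48 in NRK-52E and at -0.12 in NRK-49F, and the grey curve at 0.00 in both; with library totals in place of TMM the members' medians were -0.69 and -0.08, also below those of all genes.

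The direction of these medians did not turn under another scaling. With libraries scaled by their total counts, the median of all genes in NRK-52E moved to -0.21 and that of the members to -0.69, so the members stayed 0.48 below all genes. In NRK-49F the members' median was -0.08 and that of all genes 0.04. The column names carry a second number of unstated meaning, 21 or 22 in NRK-52E and 20 or 21 in NRK-49F, with 2 libraries of each pH for every number. Within number 21 of NRK-52E, 54 members were lower and 21 higher, with a median of -0.55, and within number 22 there were 22 lower and 11 higher, with a median of -0.54. Within number 20 of NRK-49F, 37 members were lower and 11 higher (median -0.22), and within number 21 there were 13 lower and 8 higher (median -0.04). The medians of all genes were -0.04 and -0.01 within 21 and 22 of NRK-52E. They were -0.00 and 0.00 within 20 and 21 of NRK-49F, so the shift in that line was small within number 21. These fits of 4 libraries called fewer genes of any kind. Of all genes they called 37.7% and 20.2% for NRK-52E, 35.0% and 14.3% for NRK-49F, and of the members 37.1%, 16.2%, 23.2% and 10.1%. With the number as a covariate in the fit of 8 libraries, 88 members were lower and 30 higher in NRK-52E, and 52 lower and 20 higher in NRK-49F. In these fits 58.4% of the members were called in NRK-52E, beside 55.0% of all genes, and 34.8% in NRK-49F, beside 39.1%. Of 30 named members called in NRK-52E, 20 were called within both numbers, 2 within 1 and 8 within neither, and of 28 in NRK-49F, 10, 13 and 5. Those called within neither were Zfp266, Zfp281, Zfp346, Zfp384, Zfp41, Zfp57, Zfp612 and Zfp655 in NRK-52E, and Zfp41, Zfp423, Zfp426, Zfp870 and Zfp871 in NRK-49F. None of these called members changed sign in the fits within a number. These fits share their libraries with the fit that made the calls, so that is not an independent check.

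Whether the pH effect differed between the lines was tested as an interaction in an edgeR fit of all 16 libraries. Of 213 members tested, 54 (25.4%) had an effect more positive in NRK-49F and 25 (11.7%) an effect more positive in NRK-52E at an FDR below 0.01. Among all 14679 genes tested, these shares were 17.6% and 19.4%. The median difference of the log2 fold changes, NRK-52E minus NRK-49F, was -0.35 for the members and -0.01 for all genes. With library totals the split was 74 to 15 in place of 54 to 25, and the median of all genes moved to -0.25. Of all genes, 5425 were called with library totals and 5428 under TMM. Without library N3 the number with a more positive effect in NRK-52E was 16 and that in NRK-49F 53. The medians of the members and of all genes both moved in that fit, to -0.45 and -0.12.

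The summed level of all members is given by library. In NRK-52E at pH 7.4, N1, N2, N5 and N6 had 5113, 5345, 5431 and 5281 FPM in Zfp transcripts, and at pH 6.0 N3, N4, N7 and N8 had 4790, 5154, 5106 and 4545 FPM. The means were 5292 ± 134 FPM and 4898 ± 286 FPM (SD, n = 4), and the groups overlapped, since N4 lay above N1. In NRK-49F the libraries N9, N10, N13 and N14 had 4818, 4760, 4414 and 4596 FPM at pH 7.4, and N11, N12, N15 and N16 had 4371, 4213, 4283 and 4356 FPM at pH 6.0. The means were 4647 ± 182 FPM and 4306 ± 72.8 FPM, and every library at pH 6.0 lay below every library at pH 7.4. As a share of all counted fragments, without TMM scaling, the family took 0.628 ± 0.0324% and 0.496 ± 0.0383% in NRK-52E and 0.421 ± 0.0267% and 0.398 ± 0.0126% in NRK-49F at pH 7.4 and 6.0. On that scale the libraries of NRK-52E were apart and those of NRK-49F overlapped.

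The shift in NRK-52E differed by abundance. The median log2 fold change was -1.21 for members with a mean below 5 FPM (39 tested, 23 lower and 5 higher DEGs), -0.71 for those of 5 to 20 FPM (82 tested, 39 lower, 5 higher), -0.23 for those of 20 to 50 FPM (58 tested, 23 lower, 13 higher) and 0.09 for those of 50 FPM or more (23 tested, 6 lower, 8 higher). Protein-coding genes of the same ranges had medians of -0.72, -0.38, 0.01 and 0.26, so they followed the same order and lay above the Zfp genes in each range. Of protein-coding genes in these ranges, 40.2%, 37.9%, 27.0% and 20.9% were lower and 17.0%, 16.9%, 28.0% and 41.7% higher, and of the members 59.0%, 47.6%, 39.7% and 26.1% were lower and 12.8%, 6.10%, 22.4% and 34.8% higher. In NRK-49F the medians of the members in these ranges were -0.32, -0.07, -0.14 and 0.05, and those of protein-coding genes -0.28, 0.03, 0.03 and -0.01.

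Other zinc finger families are given for comparison, by counts alone, to be read beside the shares of all genes (28.5% lower and 28.2% higher in NRK-52E, 19.4% lower and 18.4% higher in NRK-49F). For NRK-52E, 13 of 37 Zbtb genes tested were lower and 3 higher (median -0.27), 8 of 14 Zscan and Zkscan genes were lower and 3 higher (median -0.78), and 3 of 14 Klf genes were lower and 2 higher (median -0.45). In NRK-49F, 6 of 38 Zbtb genes were lower and 4 higher (median 0.09), 1 of 13 Zscan and Zkscan genes was lower and 1 higher (median -0.29), and 5 of 13 Klf genes were lower and 2 higher (median -0.31). The 3 Znf genes tested had medians of -0.15 and 0.06, with 1 lower in NRK-52E. All 4 family medians lay below that of all genes in NRK-52E, while the share of lower Klf genes (21.4%) was below that of all genes. These families were not compared at matched abundance.

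Of the members tested in both lines, 41 were DEGs in both, 30 of them lower in both and 5 higher in both. These 30 make up 33.0% of the lower DEGs in the epithelial line and 57.7% in the fibroblasts, and among all genes these shares were 31.9% and 48.3%. The 5 higher in both are 16.1% of the higher DEGs of the epithelial line, beside 30.4% among all genes. Another 57 members were lower in NRK-52E and not called in NRK-49F. They include members that were not tested in NRK-49F, such as Zfp185 and Zfp579, whose interactions rest on few counts in that line. For 34 of the 57 the interaction was also called, so that a difference between the lines was found for those only. That is 59.6% of the 57, close to the 54.8% among all genes with the same calls.

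**Figure D2:**
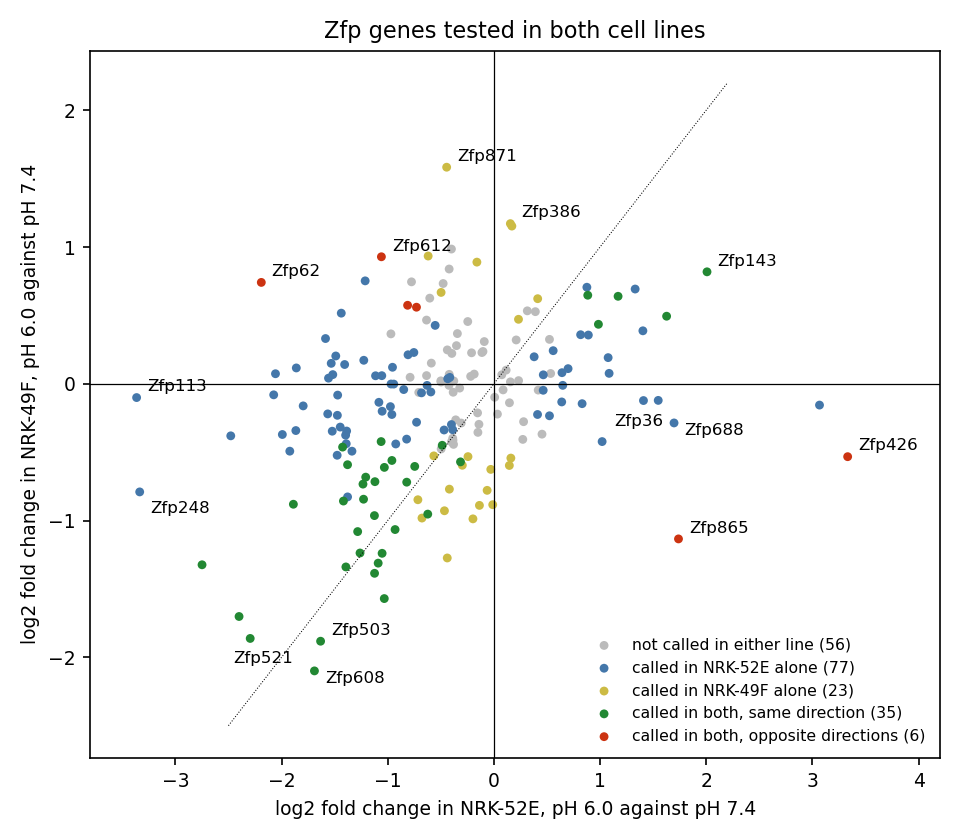
Log2 fold change at pH 6.0 relative to pH 7.4 in NRK-52E (horizontal axis) and NRK-49F (vertical axis) for the 197 Zfp genes tested in both lines, coloured by the lines in which a gene was a DEG; the dotted line marks equal values. The lower left corner holds the 30 members that were lower in both lines, and 6 members (3.05%, beside 4.28% of all genes tested in both lines) were DEGs with opposite directions.

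Zfp503, Zfp521, Zfp608 and Zfp213 were among the members that fell in both lines. Zfp503 (ENSRNOG00000014237, chromosome 15 of rn6) encodes a corepressor of the NET family that acts in the developing limb and brain. In NRK-52E it was 51.6, 42.8, 39.1 and 42.2 FPM in N1, N2, N5 and N6 and 14.8, 14.2, 15.1 and 13.4 FPM in N3, N4, N7 and N8. The NRK-49F libraries had 110, 103, 93.4 and 91.9 FPM in N9, N10, N13 and N14 and 24.5, 28.8, 28.1 and 27.5 FPM in N11, N12, N15 and N16. All libraries at pH 6.0 were far below those at pH 7.4 in each line, with a log2 fold change of -1.63 (SE 0.11, adjusted p = 6.56e-07, edgeR quasi-likelihood test) in NRK-52E and -1.88 (SE 0.10, adjusted p = 6.67e-08) in NRK-49F.

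Zfp521 (ENSRNOG00000016874, chromosome 18), a regulator of progenitor cells that inhibits the factor Ebf1, was 26.0, 28.1, 33.9 and 30.6 FPM in the NRK-52E libraries at pH 7.4 and 4.59, 7.19, 5.29 and 7.38 FPM at pH 6.0. In the fibroblasts the values were 6.97, 6.57, 5.73 and 9.488 FPM at pH 7.4 and 1.55, 1.53, 2.18 and 2.63 FPM at pH 6.0. The groups were apart in both lines, with log2 fold changes of -2.29 (SE 0.18) and -1.86 (SE 0.24). Zfp608 fell from 51.0 ± 4.21 to 16.1 ± 3.605 FPM in the epithelial line and from 59.7 ± 9.29 to 14.1 ± 2.03 FPM in NRK-49F. Zfp213 fell from 11.2 ± 1.12 to 2.13 ± 0.442 FPM and from 15.4 ± 1.50 to 4.79 ± 0.914 FPM. For none of these 4 genes was the interaction called, and the differences between the log2 fold changes of the lines were 0.24 (SE 0.14) for Zfp503, -0.45 (SE 0.29) for Zfp521, 0.40 (SE 0.22) for Zfp608 and -0.71 (SE 0.25) for Zfp213.

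The 5 members that rose in both lines were Zfp143, Zfp330, Zfp598, Zfp394 and Zfp775. Of these, Zfp330, Zfp394 and Zfp775 are named because of their values. Zfp143 (ENSRNOG00000010087, chromosome 1) encodes an activator that sits at the promoters of many housekeeping genes. It was 11.1, 13.9, 11.8 and 13.7 FPM in NRK-52E at pH 7.4 and 59.9, 52.4, 59.7 and 34.4 FPM at pH 6.0, where N8 was the lowest library. The NRK-49F values were 12.3, 9.30, 10.01 and 9.37 FPM at pH 7.4 and 23.2, 18.9, 17.8 and 13.04 FPM at pH 6.0. The groups did not overlap in either line, and the log2 fold change was 2.01 (SE 0.18, adjusted p = 3.23e-06, edgeR) in NRK-52E and 0.82 (SE 0.18, adjusted p = 0.00229) in NRK-49F. The rise was larger in NRK-52E, by 1.18 on the log2 scale (SE 0.26, adjusted p = 0.0011 for the interaction in edgeR). Within the second number 21 of NRK-49F the log2 fold change was 0.65 and not called.

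Zfp330 rose from 52.04 to 163 FPM in NRK-52E, a log2 fold change of 1.63, and from 53.6 to 76.3 FPM in NRK-49F, one of 0.49, and its interaction was called. Zfp394 had values of 0.98 and 0.43 and Zfp775 of 0.88 and 0.65 in the 2 lines.

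Among the members that rose in NRK-52E, Zfp426 and Zfp865 were lower in NRK-49F. Zfp426 (ENSRNOG00000033624, chromosome 8) was 1.78, 1.15, 0.871 and 1.43 FPM in NRK-52E at pH 7.4 and 16.1, 12.9, 12.6 and 11.6 FPM at pH 6.0. Fibroblast libraries had 18.5, 16.7, 17.3 and 18.7 FPM at pH 7.4 and 13.1, 10.3, 12.9 and 13.3 FPM at pH 6.0. The epithelial line thus went from a level far below that of the fibroblasts to one that overlapped the fibroblast libraries at pH 6.0. The log2 fold change was 3.33 (SE 0.23, adjusted p = 6.59e-07, edgeR) in NRK-52E and -0.53 (SE 0.12, adjusted p = 0.00301) in NRK-49F, and the interaction was 3.85 (SE 0.25, adjusted p = 3.38e-09). The call in NRK-49F was lost without N9 (-0.52) or without N12 (-0.46), and within either second number, 20 (-0.58) or 21 (-0.48).

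Zfp865 (chromosome 1) was 6.04, 6.15, 4.27 and 5.28 FPM in NRK-52E at pH 7.4 and 20, 17.5, 20.3 and 15.8 FPM at pH 6.0. In the fibroblast line the level was 15.4904, 14.7, 15.1 and 13.8 FPM at pH 7.4 and 6.15, 7.69, 8.09 and 5.32 FPM at pH 6.0. The lines exchanged places, with log2 fold changes of 1.74 (SE 0.16) and -1.13 (SE 0.16) and an interaction of 2.86 (SE 0.23, adjusted p = 2.6e-08, edgeR). In NRK-49F it was not called within the second number 21, at the same size (-1.13). Zfp688 rose from 12.4 ± 1.76 to 40.6 ± 2.87 FPM in NRK-52E (log2 fold change 1.70) and was 21.2 ± 2.80 and 17.6 ± 1.98 FPM in NRK-49F, where it was not called, with an interaction of 1.97 (SE 0.18).

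Zfp92, on the X chromosome, came up from almost no counts. It had 0, 3, 1 and 1 counts in N1, N2, N5 and N6, and 1.96, 3.37, 1.76 and 1.60 FPM in N3, N4, N7 and N8. It was called in NRK-52E by both tools, and since its fitted fold change depends on the prior count of the fit, none is given. In NRK-49F it was at most 0.195 FPM in any library and was not tested.

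The reverse pattern, lower in NRK-52E and higher in NRK-49F, was found for 4 members. With Zfp426 and Zfp865 that makes 6 DEGs of opposite direction, 3.05% of the 197 members tested in both lines, while among all genes the share was 4.28%. Zfp62 (ENSRNOG00000051756, chromosome 10) was 34.4, 41.1, 42.2 and 42.03 FPM in NRK-52E at pH 7.4 and 5.69, 8.77, 8.28 and 12.6 FPM at pH 6.0. The NRK-49F libraries had 19.0, 17.6, 14.1 and 10.9 FPM at pH 7.4 and 28.5, 23.4, 25.8 and 26.1 FPM at pH 6.0. At pH 7.4 every epithelial library was above every fibroblast library, and at pH 6.0 every epithelial library was below. The log2 fold change was -2.19 (SE 0.21, adjusted p = 6.2e-06, edgeR) in NRK-52E and 0.74 (SE 0.16, adjusted p = 0.0024) in NRK-49F, a difference of -2.95 (SE 0.28, adjusted p = 1.47e-07). The rise in NRK-49F was not called within the second number 20 (0.51) and was called within 21 (1.04).

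Zfp612 changed by -1.06 (SE 0.25) in NRK-52E and by 0.93 (SE 0.20) in NRK-49F, and Zfp655 by -0.73 (SE 0.11) and 0.56 (SE 0.12). Zfp41 was 16.3 ± 1.44 and 9.42 ± 1.64 FPM in NRK-52E and 8.28 ± 1.16 and 12.4 ± 1.85 FPM in NRK-49F at pH 7.4 and 6.0. Its log2 fold change was -0.81 and 0.57, and the latter call was lost whichever of the 8 libraries N9 to N16 was left out, at values of 0.48 (without N11) to 0.64 (without N12). The interactions of Zfp612 (-1.99), Zfp655 (-1.30) and Zfp41 (-1.39) were called. Within the second numbers, none of these 3 was called in NRK-52E, with values of -0.96 and -1.16 for Zfp612, -0.71 and -0.77 for Zfp655 and -0.83 and -0.81 for Zfp41. In NRK-49F, Zfp612 was called within 21 (1.35) and not within 20 (0.57), Zfp655 within 20 (0.45) and not within 21 (0.69), and Zfp41 within neither (0.67 and 0.50).

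Among DEGs that reached 1 FPM at either pH and whose groups were apart, Zfp113 and Zfp248 had the deepest falls in NRK-52E. Zfp113 (ENSRNOG00000001341, chromosome 12) was 6.89, 8.32, 10.4 and 7.95 FPM at pH 7.4 and 0.183, 0.944, 0.984 and 1.08 FPM at pH 6.0, with N3 the lowest. Its log2 fold change was -3.36 (SE 0.35, adjusted p = 1.06e-05, edgeR), and it was 3.89 ± 0.594 and 3.65 ± 0.623 FPM in NRK-49F, where it was not called. The effects differed by -3.28 (SE 0.40, adjusted p = 3.37e-06, edgeR interaction), so expression at pH 6.0 was below that of the fibroblasts although it had been above it at pH 7.4.

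Zfp248 (chromosome 4) was 6.75, 8.03, 8.25 and 7.57 FPM at pH 7.4 and 1.04, 0.989, 0.738 and 0.329 FPM at pH 6.0 among NRK-52E libraries, a log2 fold change of -3.34 (SE 0.29). In NRK-49F it was 9.15 ± 2.51 and 5.31 ± 1.55 FPM, a log2 fold change of -0.79 (SE 0.24) that DESeq2 alone called. It was called by both tools without N13 (-0.87) and without N16 (-1.02). Its interaction was -2.55 (SE 0.39). Zfp473, which belongs to the U7 particle that processes histone transcripts, fell from 4.73 ± 0.549 to 0.856 ± 0.249 FPM in NRK-52E and was below 1 FPM in every NRK-49F library. Zfp647 fell in both lines, by 2.75 on the log2 scale in NRK-52E and by 1.32 in NRK-49F, and the fall was deeper in NRK-52E (interaction -1.44, SE 0.39).

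By the same rule, the leading rises of the fibroblasts were Zfp871, Zfp9, Zfp386, Zfp367 and Zfp873. Zfp386 (chromosome 6) was 43.9, 45.4, 42.5 and 32.9 FPM at pH 7.4 and 98.8, 100, 88.8 and 86.5 FPM at pH 6.0. In NRK-52E it was 45.9, 46.2, 52.9 and 50.3 FPM at pH 7.4 and 47.3, 46.5, 50.2 and 75.9 FPM at pH 6.0. The fibroblast groups were far apart (log2 fold change 1.17, SE 0.12, adjusted p = 8.51e-06, edgeR), whereas in NRK-52E the groups overlapped and N8 alone was high (log2 fold change 0.16, SE 0.16). The interaction was -1.03 (SE 0.20).

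Zfp367 rose from 18.3 ± 4.30 to 41.1 ± 11.7 FPM and Zfp873 from 6.62 ± 1.69 to 12.7 ± 1.12 FPM in NRK-49F, and their interactions were -0.997 (SE 0.26) and -1.56 (SE 0.29). In NRK-52E, Zfp873 was not called at -0.62, and it was called under library totals (-0.82) and without N8 (-0.77). Zfp9 rose from 5.45 ± 1.53 to 14.4 ± 6.26 FPM in NRK-49F and had at most 1 count in any NRK-52E library. Zfp871 was 0.972, 2.17, 0.988 and 0.593 FPM at pH 7.4 and 2.66, 4.38, 2.18 and 5.13 FPM at pH 6.0. Its rise of 1.58 (SE 0.41) was close to the limit and was lost without N9 (1.50), N12 (1.48), N13 (1.5232), N14 (1.33) or N16 (1.35).

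The deepest falls in NRK-49F also include Zfp541, a factor of meiotic germ cells, which fell from 2.54 ± 0.550 to 0.584 ± 0.400 FPM (log2 fold change -2.24, SE 0.46). In NRK-52E it was below 1 FPM in every library and was not tested.

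Of 7 members that act on RNA and ribosomes, 3 were DEGs with higher expression in NRK-52E, and in NRK-49F 2 were higher and 1 lower. Among all genes 28.2% were higher in the epithelial line, and 18.4% were higher and 19.4% lower in the fibroblasts, so counts this small are not read against that background. Zfp36 (ENSRNOG00000058388, chromosome 1), which binds AU-rich elements of short-lived mRNAs and recruits the enzymes that shorten their poly(A) tails, was 34.5, 30.4, 33.1 and 29.7 FPM in NRK-52E at pH 7.4 and 105, 88.9, 80.05 and 70.5 FPM at pH 6.0. In the fibroblasts the values were 35.5, 32.8, 30.8 and 29.0 FPM at pH 7.4 and 31.9, 27.7, 31.4 and 27.8 FPM at pH 6.0. Under TMM scaling the log2 difference of the lines at pH 7.4 was -0.00, while scaled by library totals the epithelial libraries had 35.1 to 40.6 FPM and the fibroblast libraries 26.6 to 32.4 FPM. All epithelial libraries at pH 6.0 stood above the other 12 libraries. The log2 fold change was 1.41 (SE 0.13, adjusted p = 3.36e-06, edgeR) in NRK-52E and -0.12 (SE 0.10, adjusted p = 0.344) in NRK-49F, with an interaction of 1.52002 (SE 0.17, adjusted p = 8.82e-07).

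Zfp598, the ubiquitin ligase that marks collided ribosomes, was 61.1, 58.0, 64.3 and 64.2 FPM in NRK-52E at pH 7.4 and 159, 143, 152 and 112 FPM at pH 6.0. The NRK-49F values were 40.2, 39.4, 44.2 and 53.3 FPM at pH 7.4 and 82.2, 70.3, 69.9 and 56.4 FPM at pH 6.0. It rose in both lines, by 1.17 (SE 0.11) and 0.64 (SE 0.13) on the log2 scale, and the interaction was not called (0.52, SE 0.18). Within the second number 21 of NRK-49F the value was 0.35 and not called.

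Zfp346, which binds double-stranded RNA, was 28.2 ± 1.69 and 41.2 ± 6.66 FPM in NRK-52E. Its rise of 0.52 was lost under library totals (0.32) and without N4 (0.46), N5 (0.47), N6 (0.50) or N7 (0.49), and its interaction was 0.75 (SE 0.17). In NRK-49F, the RNA-binding protein Zfp106 rose from 38.6 ± 11.8 to 72.3 ± 4.38 FPM. Zfp326, a subunit of the complex that couples RNA polymerase II to splicing, fell from 31.7 ± 6.38 to 16.1 ± 3.72 FPM, by -1.36 within the second number 20 and by -0.66, not called, within 21. Neither was called in NRK-52E, and their interactions were not called (-1.05, SE 0.34, and 0.78, SE 0.25). Zfp622, a factor of ribosome maturation, and Zfp638, a nuclear RNA- and DNA-binding protein, were called in neither line.

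The relatives of Zfp36 and the decay enzymes it works with were read from a list of 8 genes, of which 7 were tested. In NRK-52E, Xrn1 (0.87), Dcp1a (0.73) and Cnot7 (0.92) were higher and Zfp36l2 (-0.91) was lower. In NRK-49F, Xrn1 (1.14), Dcp1a (0.40), Cnot7 (0.51) and Dcp2 (0.81) were higher. Among all genes 28.2% were higher and 28.5% lower in the epithelial line, and 18.4% higher and 19.4% lower in the fibroblasts. Zfp36l1 there was 346 ± 39.2 and 258 ± 43.1 FPM, with an adjusted p of 0.0104 in edgeR and 0.0034 in DESeq2.

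**Figure D3:**
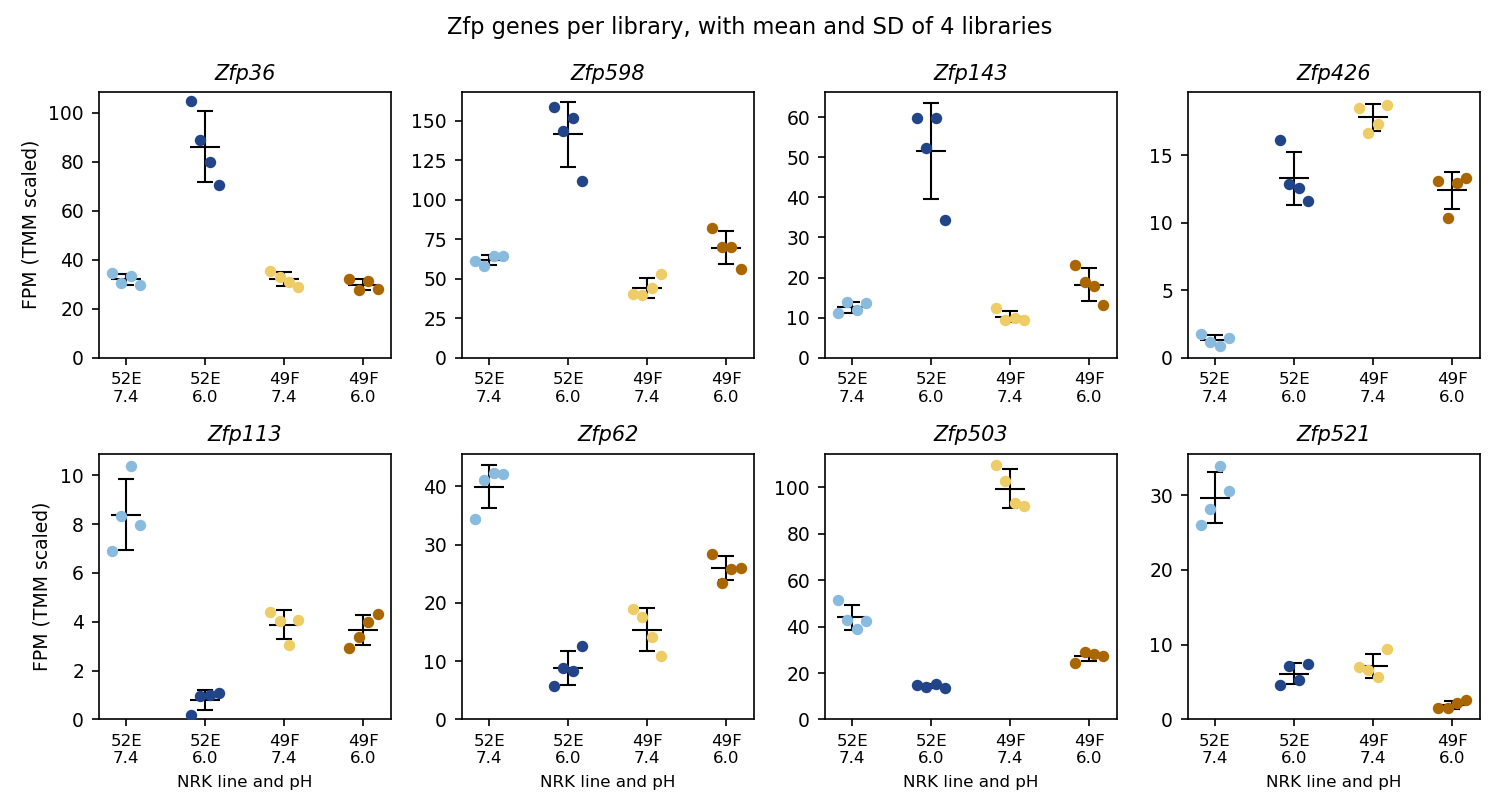
FPM (TMM scaled, vertical axes from 0) of 8 Zfp genes in each of the 16 libraries, grouped by cell line and pH; points are libraries and bars the mean and SD of 4 libraries. Zfp36 is at 70.5 to 105 FPM in NRK-52E at pH 6.0 and at 27.7 to 35.5 FPM in the 12 other libraries, and Zfp62 shows opposite directions in the 2 lines.

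Of the 5 promoter-bound activators, Zfp143 rose in both lines as described, and Zfp384 fell in both, from 80.7 ± 3.62 to 58.4 ± 4.64 FPM in NRK-52E (log2 fold change -0.49) and from 106 ± 7.53 to 78.6 ± 2.09 FPM in NRK-49F (-0.45). Zfp281, which binds GC-rich promoters, fell from 25.2 ± 3.86 to 10.98 ± 4.79 FPM in NRK-52E (-1.23, SE 0.27) and was 10.2 ± 3.37 and 11.6 ± 2.82 FPM in NRK-49F, with an interaction of -1.40 (SE 0.40). Zfp410, whose best known target is the chromatin remodeller gene Chd4, was 42.8 ± 4.82 and 58.0 ± 9.92 FPM in NRK-52E. It was not called at 0.42 (adjusted p = 0.0159, edgeR) and was called without N8 (0.52). Chd4 itself was 337 ± 17.7 and 285 ± 50.6 FPM there and was not called. Zfp148 was called in neither line.

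Among the developmental regulators and corepressors, 14 genes were listed, Zfp750 and Zfp42 were not among the members, and Zfp711 had no counts. In NRK-52E, 6 of 10 tested were lower, beside 45.0% of all members and 28.5% of all genes, and their median log2 fold change was -0.99. In NRK-49F, 5 of 11 were lower, beside 25.1% of all members and 19.4% of all genes, with a median of -0.26, and DESeq2 alone called Zfp703 as higher. Zfp703, the other corepressor of the NET family, was 37.1, 33.2, 35.1 and 33.7 FPM at pH 7.4 and 13.6, 13.2, 11.8 and 13.4933 FPM at pH 6.0 among NRK-52E libraries. Fibroblast libraries had 20.6, 19.3, 20.4 and 32.4 FPM at pH 7.4 and 34.3, 28.5, 37.4 and 33.9 FPM at pH 6.0. The epithelial groups were apart (log2 fold change -1.44, SE 0.11), and in the fibroblasts N14 at pH 7.4 reached into the range of pH 6.0. The value of 0.52 in NRK-49F (SE 0.16, adjusted p = 0.0161, edgeR) was not called, and without N14 it was 0.72 and called. The interaction was -1.97 (SE 0.21), in contrast to Zfp503, where both lines fell.

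Zfp467, a regulator of fat and bone cell fate, fell in both lines, from 62.3 ± 4.77 to 30.9 ± 2.82 FPM in the epithelial line and from 37.0 ± 4.97 to 12.6 ± 1.29 FPM in NRK-49F. Zfp462 fell in NRK-52E (-1.23, SE 0.18). In NRK-49F its value of -0.84 (SE 0.23) was called with all 8 libraries and not under library totals (-0.81) or without N9 (-0.79), N10 (-0.75), N11 (-0.87), N12 (-0.81), N14 (-0.78), N15 (-0.78) or N16 (-0.91). Library N13 was low for this gene, at 5.66 FPM beside 11.8 to 12.3 FPM in the other libraries at pH 7.4.

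Zfp57, a KRAB protein that keeps DNA methylation at imprinted genes, was 25.9 ± 2.83 and 13.7 ± 4.86 FPM in NRK-52E. Its fall of -0.94 was not called without N2 (-0.88) or N3 (-0.85). In NRK-49F it was 9.52 ± 2.97 and 9.62 ± 0.993 FPM. Zfp423, a partner of Ebf factors in fat precursor cells, was 1.03, 0.606, 1.05 and 0.791 FPM in NRK-49F at pH 7.4 and 0, 0.133, 0.325 and 0.0313 FPM at pH 6.0. It fell there, and the call was lost without N9 (fitted value -2.64) or N16 (-2.32). In NRK-52E it had no counts at pH 7.4 and at most 0.183 FPM at pH 6.0. Its fitted fold changes and its interaction rest on few counts and depend on the prior count, so their size is not read. Zfp644, a partner of the G9a methyltransferase, was 55.8 ± 3.73 and 44.2 ± 6.44 FPM in NRK-52E, not called at -0.36, but called without N3 (-0.46) and under library totals (-0.57). Zfp217, Zfp516 and Zfp746 were called in neither line.

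Of the members with roles in ubiquitin, SUMO and mitosis, Zfp207, which binds the spindle checkpoint protein Bub3, fell from 120 ± 3.34 to 80.3 ± 10.2 FPM in NRK-52E (log2 fold change -0.59, SE 0.10). It was 77.8 ± 3.06 and 75.4 ± 17.1 FPM in NRK-49F, and the interaction was not called (-0.55, SE 0.18). The ubiquitin ligase Zfp91 and the SUMO ligase Zfp451 were called in neither line.

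The 5 members with the most fragments were Zfp260, Zfp706, Zfp91, Zfp266 and Zfp395. Zfp260 was 142 ± 7.45 and 169 ± 32.0 FPM in NRK-52E without a call and rose from 133 ± 11.4 to 186 ± 6.29 FPM in NRK-49F (0.47, SE 0.09). The interaction was not called (-0.25, SE 0.15), so a difference between the lines was not found. Zfp395 was 86.8 ± 3.80 and 87.4 ± 6.20 FPM for the epithelial cells and went down from 149 ± 11.8 to 81.8 ± 7.81 FPM in NRK-49F, with an interaction of 0.86 (SE 0.13, adjusted p = 2.35e-05, edgeR). Zfp266 was 158 ± 10.48 and 123 ± 13.1 FPM in NRK-52E. Its fall of -0.39 was not called without N2 (-0.38), N6 (-0.40) or N7 (-0.38). Zfp706 was 121 ± 5.33 and 130 ± 15.04 FPM in NRK-52E and 137 ± 19.2 and 134 ± 11.9 FPM in NRK-49F and was not called.

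The partners through which KRAB proteins act were read from a list of 21 symbols, of which 19 were in the table and Fam208a and Morc2a were not. The counts below are of these 19 genes. In NRK-52E, 3 were higher (15.8%, beside 28.2% of all genes) and 7 lower (36.8%, beside 28.5%), and the median was -0.37. In NRK-49F, 3 were higher (15.8%, beside 18.4%) and 1 lower (5.26%, beside 19.4%), with a median of 0.19. Trim28 itself, the direct partner of the KRAB domain, was 371 ± 20.4 and 407 ± 30.9 FPM in NRK-52E and 272 ± 26.0 and 279 ± 15.4 FPM in NRK-49F and was not called in either line. Setdb1 fell in NRK-52E, from 72.3 ± 5.31 to 51.4 ± 10.6 FPM.

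Mphosph8 rose most on this list in both lines. It encodes a subunit of the HUSH complex that spreads repressive histone methylation, and went from 7.59 ± 1.04 to 104 ± 9.33 FPM in NRK-52E (log2 fold change 3.76, SE 0.13) and from 7.56 ± 1.13 to 61.8 ± 11.4 FPM in NRK-49F (3.03, SE 0.17). Pphln1, also of HUSH, rose by 0.65 and 0.42 on the log2 scale and the heterochromatin protein gene Cbx1 by 0.77 and 0.70. The genes that maintain DNA methylation, Dnmt1 (-1.11) and Uhrf1 (-1.65), fell in NRK-52E, as did Hdac1 (-1.25), Smarcad1 (-0.68), Chd3 (-0.93) and the methyltransferase gene Dnmt3b, which went from 2.58 ± 0.404 to 0.143 ± 0.133 FPM. Hdac1 fell in NRK-49F too (-0.73). In that line Dnmt1 (0.41) and Uhrf1 (0.71) were called as higher by DESeq2 alone, with overlapping groups. Their interactions were called (-1.54 and -2.37).

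At pH 7.4 the lines differed in 48.4% of the members tested, beside 61.7% of all genes tested. In the edgeR fit of all libraries, 66 of 213 members were higher (31.0%) and 37 lower (17.4%) in NRK-52E than in NRK-49F, beside 28% and 33.7% of all 14679 genes tested. With library totals the counts were 108 and 22, and 9376 of all 14679 genes were called. The median of all genes moved from -0.05 to 0.34, so this split depends on the scaling. At pH 6.0, 56 members (26.3%) were higher and 71 (33.3%) lower in NRK-52E, beside 30.7% and 33.8% of all genes. With library totals these counts were 61 and 54, and 9520 of all genes were called. The median of all genes moved from -0.02 to 0.13. Zfp185, which despite its symbol encodes an actin-binding protein with a LIM domain, was 12.4, 13.97, 14.2 and 16.2 FPM in NRK-52E at pH 7.4 and had 0, 0, 0 and 2 counts in NRK-49F. Zfp579 was 15.96 ± 2.01 FPM in NRK-52E and had 0, 2, 0 and 0 counts in NRK-49F. Both fell at pH 6.0 in NRK-52E, Zfp185 to 3.87 ± 0.216 FPM and Zfp579 to 5.36 ± 0.872 FPM. Zfp136 was 1.13 ± 0.559 FPM at control pH and 0.134 ± 0.104 FPM under acidosis in NRK-52E, too low for the filter, and had no count in NRK-49F.

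Zfp870, Zfp563 and Zfp9 were found in the fibroblasts and nearly absent from NRK-52E. Zfp870 was 4.77 ± 1.03 and 2.47 ± 0.465 FPM in NRK-49F, with 3, 0, 0 and 0 counts in NRK-52E at pH 7.4. Its fall of -0.95 was lost without N9 (-0.81), N11 (-0.96), N12 (-0.92) or N15 (-0.85). Zfp563 was 2.68 ± 0.596 and 1.50 ± 0.0919 FPM in NRK-49F, a log2 fold change of -0.86 that DESeq2 alone called, and edgeR also called it without N13 (-0.93). Fitted folds between the lines are not given for these genes, because they depend on the prior count where a line has few counts or none. Fragments that mapped to several places were counted at each of them, so the counts of members with near-identical copies are uncertain.

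The members lie on 21 chromosomes, and 225 of the 233 symbols were found in the RefSeq gene table of assembly GRCr8, 224 of these on the same chromosome as in the count table. Runs of 3 or more neighbouring members, with at most 1 other gene between them, numbered 12. The longest run, on chromosome 4, holds Zfp786, Zfp398, Zfp282, Zfp212, Zfp956, Zfp777, Zfp746 and Zfp467. Of these 8, 5 were lower in NRK-52E (median -0.51) and 3 in NRK-49F (median -0.16). Of all members 45.0% and 25.1% were lower, and of all genes 28.5% and 19.4%. Neighbours did not always share a direction. On chromosome 8, Zfp426 rose in NRK-52E within a run (Zfp560, Zfp26, Zfp426, Zfp266, Zfp846) in which 3 members fell. On chromosome 1, Zfp865 rose in NRK-52E between Zfp580, Zfp524 and Zfp579, all 3 of which fell. In NRK-49F the 3 tested members of that run, Zfp865 among them, fell.

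Promoter windows of 300 bases, 250 before and 50 after the start of the gene, were given by RefSeq (GRCr8) for 190 members and 19005 protein-coding genes. Motifs were searched on both strands. The letters CGGAAG, the core bound by Ets-type factors, were in 36.3% of the member windows and in 20.6% of all protein-coding windows. They were in 41.6% of the 77 windows of members lower in NRK-52E and in 41.7% of the 24 windows of members higher there, so the share did not separate the directions. The box CCAAT was in 41.6% of member windows and 38.4% of all, TATAAA in 8.95% and 13.1%, and TGACNNNGC in 9.47% and 12.7%. TGATGNAA was in 2.63% and 3.33%, and the NRF1-type motif in 11.6% and 6.09%. The NRF1-type motif was in 7.79% of the windows of members lower in NRK-52E and in 4.17% of those higher there. Member windows held a median of 18 CG dinucleotides and 57.8% G and C, all protein-coding windows 12 and 55.3%. A match describes letters in a window and no binding was measured.

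The windows of 6 members are shown because their transcripts moved in opposite directions with the same letters near the gene start. Zfp36 (chr1:92799059-92799358, minus strand) and Zfp426 (chr8:27305008-27305307, minus strand) rose in NRK-52E. Zfp655 (chr12:14488240-14488539, minus strand) and Zfp612 (chr19:54963193-54963492, plus strand) fell in NRK-52E and rose in NRK-49F. All 4 hold CGGAAG. Zfp143 (chr1:173543634-173543933, plus strand), which rose, and Zfp113 (chr12:22147378-22147677, minus strand), which fell in NRK-52E, hold CCAAT. Sequences run 5′ to 3′ on the strand of the gene in GRCr8, and capitals mark these letters, which on the other strand read CTTCCG and ATTGG.
Zfp36: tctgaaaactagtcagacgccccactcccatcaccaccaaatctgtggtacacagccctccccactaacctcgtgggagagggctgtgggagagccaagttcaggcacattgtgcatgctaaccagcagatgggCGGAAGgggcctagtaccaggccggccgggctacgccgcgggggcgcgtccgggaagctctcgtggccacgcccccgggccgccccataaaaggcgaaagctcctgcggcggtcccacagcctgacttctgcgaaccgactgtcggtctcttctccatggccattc
Zfp426: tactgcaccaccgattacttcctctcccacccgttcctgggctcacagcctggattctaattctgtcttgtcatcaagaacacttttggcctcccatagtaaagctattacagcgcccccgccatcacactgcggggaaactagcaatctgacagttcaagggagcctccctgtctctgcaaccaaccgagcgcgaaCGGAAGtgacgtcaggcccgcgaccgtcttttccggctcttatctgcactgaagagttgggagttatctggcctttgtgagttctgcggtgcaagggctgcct
Zfp655: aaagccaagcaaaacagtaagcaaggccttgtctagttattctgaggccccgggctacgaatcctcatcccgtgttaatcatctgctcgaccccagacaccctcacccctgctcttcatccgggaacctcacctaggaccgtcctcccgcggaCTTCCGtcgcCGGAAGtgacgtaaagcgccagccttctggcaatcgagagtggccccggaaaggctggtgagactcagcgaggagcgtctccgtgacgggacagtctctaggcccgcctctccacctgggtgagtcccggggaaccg
Zfp612: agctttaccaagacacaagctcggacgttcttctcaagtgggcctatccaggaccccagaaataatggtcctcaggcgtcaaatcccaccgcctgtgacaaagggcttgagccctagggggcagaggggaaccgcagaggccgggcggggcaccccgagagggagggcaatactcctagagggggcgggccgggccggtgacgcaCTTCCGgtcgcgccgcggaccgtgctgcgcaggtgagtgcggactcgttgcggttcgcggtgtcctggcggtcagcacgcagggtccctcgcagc
Zfp143: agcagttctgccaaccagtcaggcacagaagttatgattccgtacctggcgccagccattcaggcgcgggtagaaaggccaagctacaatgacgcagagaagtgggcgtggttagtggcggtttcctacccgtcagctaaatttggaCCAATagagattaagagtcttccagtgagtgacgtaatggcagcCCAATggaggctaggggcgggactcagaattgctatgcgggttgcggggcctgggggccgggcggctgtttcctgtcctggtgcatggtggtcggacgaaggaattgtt
Zfp113: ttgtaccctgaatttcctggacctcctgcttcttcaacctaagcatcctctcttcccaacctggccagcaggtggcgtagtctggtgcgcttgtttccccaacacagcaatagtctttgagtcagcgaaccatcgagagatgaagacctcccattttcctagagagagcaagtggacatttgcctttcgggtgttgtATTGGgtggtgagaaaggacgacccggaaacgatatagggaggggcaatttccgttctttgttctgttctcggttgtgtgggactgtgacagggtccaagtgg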

How the data were processed

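Poly(A)-enriched RNA was sequenced in paired-end reads of 150 bases. The authors deposited raw counts of fragments per Ensembl gene. Their methods name tophat2 and rn6 with featureCounts, counting multi-mapping fragments, while their processing notes list HISAT2 2.1.0, so the aligner is uncertain. Counts were fitted in R 4.3.3 for each cell line with edgeR 4.0.16 (TMM, filterByExpr, quasi-likelihood test) and DESeq2 1.42.0 (Wald test), adjusting p over all genes tested. The interaction and the contrast of the lines at pH 7.4 came from an edgeR fit of all 16 libraries. SE is the log2 fold change divided by the root of F. Libraries were not paired one to one, since the labels give no pairs; the second number in the column names was tried as a covariate. The members and lists were chosen with earlier results of these data known. Named members were the 5 largest rises and falls of each line (at least 1 FPM in the higher group, no overlap), DEGs of opposite sign, the 5 most abundant, the largest differences between lines and members with known roles; Zfp330, Zfp394 and Zfp775 are named for their values. Alternatives covered scaling, filters, thresholds, single tools and left-out libraries. The second number in the column names was tried for the pH effect within each line only, not for the interaction or the contrasts of the lines. The fits within that number were chosen after seeing the data. Protein classes were not analysed, since no protein sequences were available.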

Additional observations from a re-analysis of the deposited data

Results flagged for a closer look

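In 18 of 219 groups of 4 libraries, 1 library of a named member stood far from the other 3, where chance alone gives about 1 in 20, or 10.95. In 3 of these groups (Zfp870, Zfp185 and Zfp579) the other libraries had no counts, so any count makes the library stand apart; without such groups there were 15 of 216, beside 10.8 by chance. Of these 15, N14 and N8 held 3 each. In NRK-52E at pH 7.4, Zfp62 was 34.4 FPM in N1 (others 41.1 to 42.2), Zfp870 0.141 FPM in N1 (others 0), Zfp647 5.61 FPM in N2 (others 7.05 to 7.14) and Zfp217 39.5 FPM in N2 (others 31.8 to 32.4). In the same line at pH 6.0, Zfp113 was 0.183 FPM in N3 (others 0.944 to 1.08), and N8 had 75.9 FPM of Zfp386 (others 46.5 to 50.2), 134 FPM of Zfp91 (others 170 to 173) and 95.5 FPM of Zfp207 (others 73.6 to 77.1). Among the NRK-49F libraries at pH 7.4, N14 had 29.6 FPM of Zfp655 (others 39.7 to 40.8), 67.0 FPM of Zfp638 (others 81.5 to 83.0), 32.4 FPM of Zfp703 (others 19.3 to 20.6) and 0.0791 FPM of Zfp185 (others 0). Zfp579 was 0.101 FPM in N10 (others 0), and N13 had 5.66 FPM of Zfp462 (others 11.8 to 12.3) and 5.07 FPM of Zfp57 (others 10.8 to 11.3). At pH 6.0, N12 had 10.3 FPM of Zfp426 (others 12.9 to 13.3), and N16 had 7.63 FPM of Zfp248 (others 4.47 to 4.58) and 27.1 FPM of Zfp644 (others 22.7 to 23.4).

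The pH effect differed between the lines, by the edgeR interaction at an FDR below 0.01, for 23 of the members named by rule, and also for Zfp330 (1.12), which is named for its values. Of all members tested 37.1% had a called interaction, beside 37.0% of all genes. Some naming rules pick members that differ between the lines, so the 23 are not read against these shares. The difference of the log2 fold changes, NRK-52E minus NRK-49F, was positive for Zfp426 (3.85), Zfp865 (2.86), Zfp688 (1.97), Zfp36 (1.52002), Zfp143 (1.18), Zfp395 (0.86) and Zfp346 (0.75). It was negative for Zfp113 (-3.28), Zfp62 (-2.95), Zfp248 (-2.55), Zfp473 (-2.11), Zfp612 (-1.99), Zfp703 (-1.97), Zfp873 (-1.56), Zfp647 (-1.44), Zfp281 (-1.40), Zfp41 (-1.39), Zfp655 (-1.30), Zfp386 (-1.03) and Zfp367 (-0.997). The values of Zfp423 (6.69), Zfp579 (-3.46) and Zfp185 (-4.29) rest on a line with few counts or none and depend on the prior count. The value of Zfp473 also rests on low counts in NRK-49F, where every library was below 1 FPM.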

How the results depend on the processing

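With library totals in place of TMM, the median log2 fold change of the Zfp genes in NRK-52E was -0.69 beside -0.21 for all genes. The interaction then gave 15 members with a more positive effect in NRK-52E in place of 25, with 5425 and 5428 of all genes called. With library totals 108 members were higher and 22 lower in NRK-52E than in NRK-49F at pH 7.4, and 9376 of all 14679 genes were called. The summed level on that scale was 6276 FPM in NRK-52E at pH 7.4, 4958 FPM at pH 6.0, 4206 FPM in NRK-49F at pH 7.4 and 3975 FPM in NRK-49F at pH 6.0. Keeping log2 fold changes of 1 or more in size left 77 DEGs in NRK-52E (15 higher, 62 lower) and 23 in NRK-49F (4 higher, 19 lower), as fewer genes can pass. An FDR below 0.05 gave 32 higher and 67 lower DEGs in NRK-49F, where 6976 of all 13339 genes tested were called. The fits within the second number of the column names, chosen after seeing the data, hold 4 libraries each: number 21 gave 75 DEGs in NRK-52E (21 higher, 54 lower) and number 22 gave 33 (11 higher, 22 lower). In NRK-49F, number 20 gave 48 DEGs (11 higher, 37 lower) and a median of -0.22, and number 21 gave 21 DEGs (8 higher, 13 lower) and a median of -0.042. Leaving out each library in turn gave 103 to 137 DEGs among the members in NRK-52E and 54 to 69 in NRK-49F. Of all genes, these fits called 6789 to 8914 and 4126 to 4993. The interaction was more positive in NRK-52E for 16 to 33 members, while 4708 to 5973 of all genes were called in either direction. Of 100 values of named members, 58 were called, and none of these changed sign under library totals, DESeq2 alone or a left-out library. Among the 42 not called, 16 did. The pH groups of called members seldom overlapped, so a change of sign was unlikely from the start and its absence does not measure stability. Over the fits with a library left out, 427 of 464 calls were kept and 37 lost, and 7 of 336 were gained. The cause of the other differences was not tested.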
